A study of Homo sapiens with 20 samples.

Results

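Peaks of STAG2, STAG1, SMC1A and CTCF were examined around 9 antigen presentation genes: B2M, HLA-B, HLA-C, HLA-E, TAP1, TAP2, TAPBP, PSMB9 and NLRC5. A peak was counted when it overlapped a gene or the 10 kb on either side of it, in hg19 coordinates and with GENCODE gene bounds. The 9 genes stand against 20136 protein-coding genes on the main chromosomes. Of the 1600648 peaks in the 16 lists, 230 lay near them, 131 in replicate 1 and 99 in replicate 2.

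The cells were M14, an established human melanoma line that carries a doxycycline-inducible shRNA against STAG2. WT libraries came from cells grown without doxycycline and STAG2-KD libraries from cells grown with it, for 5 days per the labels of replicate 1, and both groups carry the shRNA construct. Each of the 4 antibodies had 2 WT and 2 STAG2-KD libraries, and the replicates differ in how chromatin was extracted and fragments were sized and in the rule used to call peaks, so WT and STAG2-KD were compared only inside a replicate. The labels do not say whether replicates were separate cultures, the model is 1 cell line with 1 inducible knockdown, and a peak list holds no expression by which the line or the STAG2 level could be checked. The STAG2 lists held 79115 (WT) and 58521 (STAG2-KD) peaks in the first replicate, with 119021 and 106203 in the second.

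MHC class I molecules show peptides from inside the cell to CD8+ T cells. A heavy chain such as HLA-B, HLA-C or HLA-E pairs with the light chain B2M, and peptides cut by the immunoproteasome, of which PSMB9 is a catalytic subunit, are pumped into the endoplasmic reticulum by the TAP1 and TAP2 transporter. Tapasin, the product of TAPBP, bridges the transporter and the empty heavy chain, and NLRC5 is the transactivator that switches on class I genes. Most of these genes respond to interferon. Cohesin is the ring that extrudes and holds chromatin loops: SMC1A is in every ring, STAG1 and STAG2 are alternative subunits, and CTCF binds DNA at the sites where many loops end.

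The peaks merged into 29 sites, 7 near B2M, 11 near NLRC5 and 11 near the genes of chromosome 6. Each site is named by the gene whose main start is nearest and its distance from that start. Strength is given as a percentile: the rank of a peak by −log10 p-value among all main-chromosome peaks of its own list, with 100 as the strongest. Where a site held several peaks of 1 list, the strongest was taken. Read numbers are those at the summit and were solved from each peak's fold and p-value. Mean coverage in extended reads per base was 0.896 to 2.08 in replicate 1 and 2.08 to 3.98 in replicate 2. The replicate 1 lists end at a q-value of 0.00999 and those of replicate 2 reach 0.489. No test between groups was made, since with 2 libraries against 2 a two-sided exact permutation test cannot give a p below 0.333, and with 2 pairs not below 0.5.

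**Figure D1:**
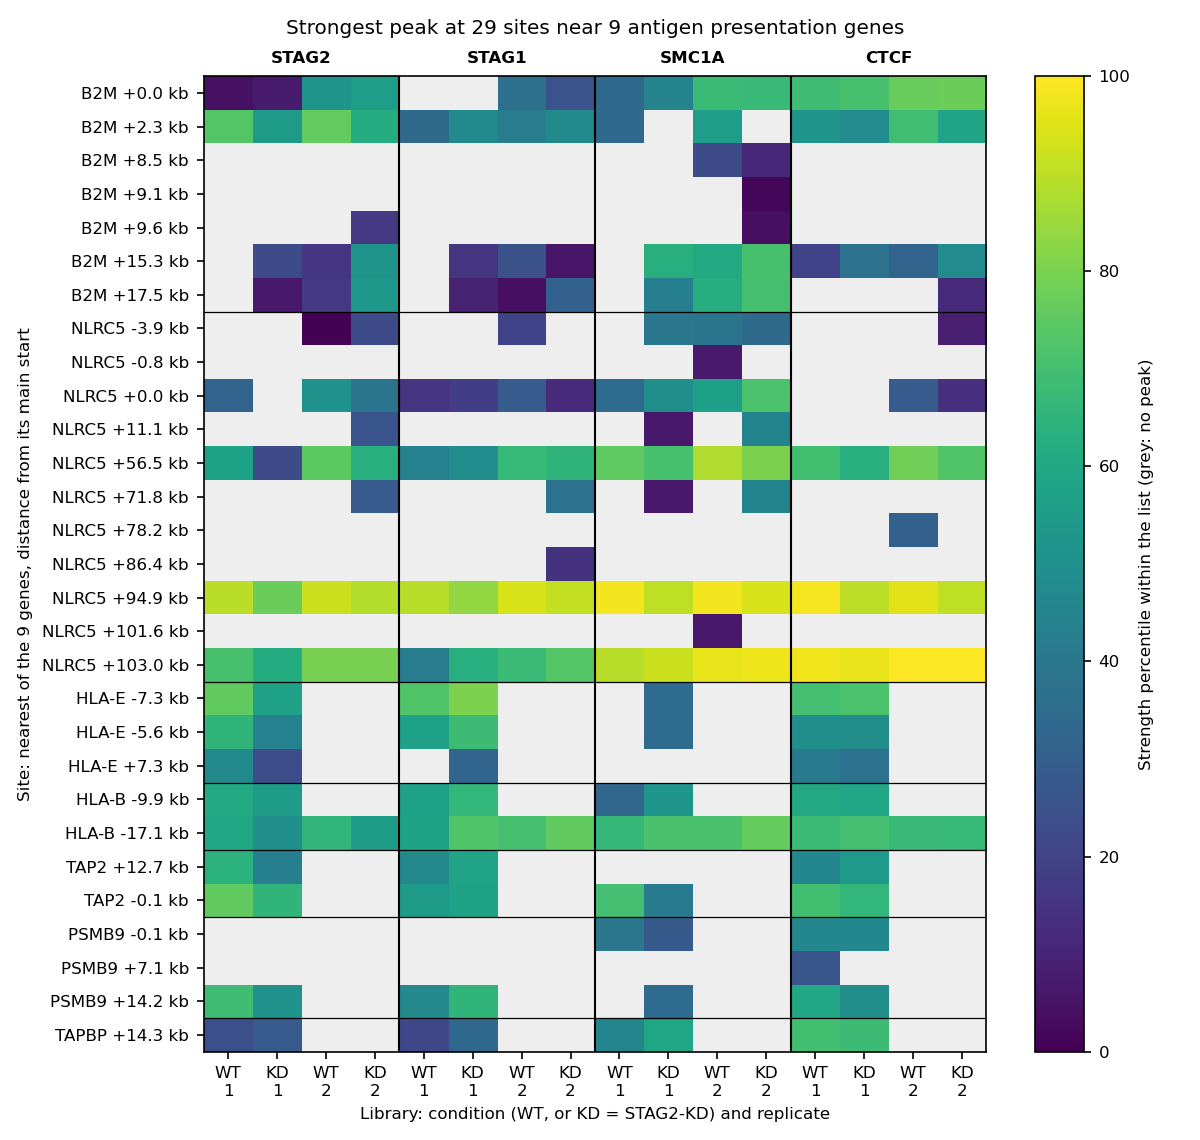
Strength percentile of the strongest peak at each of the 29 sites (rows) in the 16 libraries (columns, grouped by antibody; WT or KD for STAG2-KD, with the replicate number); grey marks no peak. 4 rows are filled in every column: NLRC5 +56.5 kb, NLRC5 +94.9 kb, NLRC5 +103.0 kb and HLA-B −17.1 kb, and 10 of the 11 chromosome 6 rows are grey in all replicate 2 columns.

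The first feature of these lists was a gap in replicate 2 over the 7 genes of chromosome 6. In replicate 1, 6 of them had peaks, while in replicate 2 only HLA-B had any, 1 peak in each of the 8 lists. Between 29 and 33 Mb of chromosome 6 the replicate 1 lists held 70 to 151 peaks (median 93) and the replicate 2 lists 9 to 15 (median 11). Between 30 and 31 Mb, replicate 1 held 20 to 41 and replicate 2 held 0 in each of its 8 lists. The rest of the chromosome showed the opposite order, with 2941 to 4613 peaks in replicate 1 and 5318 to 7964 in replicate 2. The gap was thus local, and it was common to all 4 antibodies and to both conditions.

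**Figure D2:**
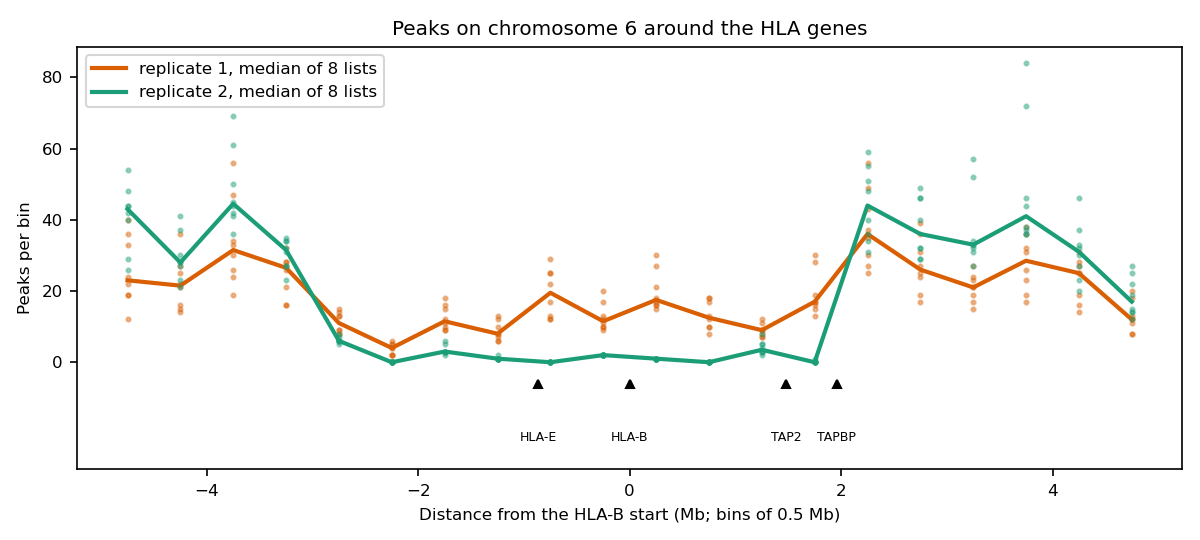
Peaks per bin of 0.5 Mb on chromosome 6, by distance from the HLA-B start; dots are the 8 lists of a replicate, lines their medians, and triangles mark 4 genes. From 3 Mb before HLA-B to 2 Mb after it the replicate 2 line lies below that of replicate 1, and in the other bins it lies above.

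The replicates also differ in the reference names they use. Peaks on alternate sequences of the HLA region numbered 473 to 1049 per list in replicate 1 and 27 to 55 in replicate 2. Whether the handling of these sequences has a part in the gap was not tested. Near the chromosome 6 genes there were 8.63 replicate 1 peaks for each replicate 2 peak, against 0.681 near B2M and NLRC5. Of all protein-coding genes, 328 (1.63%) had peaks in replicate 1 but in no replicate 2 list, and 74.3% had a peak in every list. Except at HLA-B −17.1 kb, each value given for the chromosome 6 genes therefore rests on 1 WT and 1 STAG2-KD library per antibody.

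B2M, the light chain of every class I molecule (ENSG00000166710, chr15:45003556-45011049, plus strand), had 1 to 6 peaks per list in replicate 1 and 3 to 8 in replicate 2. Its promoter site (chr15:45002296-45005231) ran over the start and was a chain of separate peaks. The CTCF summits in it lay upstream of the start and were its strongest feature. CTCF stood at the 68.8th percentile (WT) and the 70.9th (STAG2-KD) in the first replicate, with 76.9 and 77.5 in the second. STAG2 stood at 4.55 and 7.20 in the first, with 51.6 and 56.0 in the second. The strongest STAG2 peaks at the promoter were thus among the weakest of their lists in replicate 1 and of middle rank in replicate 2. Their summits lay close to the main start in replicate 1 and at the upstream CTCF summits in replicate 2. At those CTCF summits a WT STAG2 peak of replicate 1 (chr15:45002898-45003059, 12 reads, percentile 3.09) was lost in STAG2-KD. In replicate 2 a STAG2 peak of 15 reads (chr15:45004505-45004978, percentile 8.77) was gained. STAG1 had no peak at the promoter in replicate 1 and percentiles of 37.02 and 25.5 in replicate 2.

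The strongest SMC1A peaks at the B2M promoter stood at 34.0 (WT) and 44.8 (STAG2-KD) in the first replicate, with 68.3 and 67.9 in the second. Those of the first replicate were separate peaks, and the STAG2-KD peak that overlapped the WT one stood at 7.67, so the direction there depends on which peaks are compared. In the first replicate its 3 gained peaks here had 13, 14 and 14 reads. One of them, at chr15:45004184-45004309, was also covered in STAG2-KD of replicate 2 and met no WT peak in either replicate. The wide STAG2-KD peak that covered it in replicate 2 did overlap WT peaks, however, so it was not a gained peak there, and the site as a whole had SMC1A in all 4 lists.

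The 150 bases before the main B2M start are shown for their regulatory letters, read from the hg19 reference on the gene's strand. Capitals mark an interferon-stimulated response element (ISRE; searched on both strands as 2 runs of TTTC with any 2 bases between them), here 2 overlapping matches on the reverse strand, and a CCAAT box, which is also on the reverse strand.
B2M, chr15:45003565-45003714, plus strand: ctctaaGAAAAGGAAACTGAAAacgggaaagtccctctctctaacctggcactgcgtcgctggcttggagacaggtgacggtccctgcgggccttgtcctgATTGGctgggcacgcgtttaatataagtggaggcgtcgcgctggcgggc

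The strongest STAG2 site of the B2M locus was not the promoter but B2M +2.3 kb, in an intron of the gene (chr15:45005631-45006458). STAG2 stood at the 73.1st percentile (WT) and the 54.4th (STAG2-KD) in the first replicate, with 76.0 and 61.8 in the second, a mean difference of −16.4 ± 3.2 percentile points (SD, n = 2). Summit reads were 75 (WT) and 38 (STAG2-KD), then 77 and 44. Both replicates were lower in STAG2-KD, and the STAG2 peak was present in all 4 lists. Over all STAG2 sites retained from WT to STAG2-KD the median difference was −8.33 percentile points in replicate 1 and −2.54 in replicate 2, so B2M +2.3 kb lay below both medians.

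STAG1 at B2M +2.3 kb went the other way, with 34.5 (WT) and 47.6 (STAG2-KD) in the first replicate, then 42.4 and 48.0, a mean difference of 9.33 ± 5.2 percentile points (SD, n = 2). Its fold enrichment was 5.83 and 7.74, then 3.78 and 3.52, so by fold the replicates differed in direction. CTCF was lower in STAG2-KD in both replicates, at 51.7 and 48.2 and at 69.5 and 58.3. SMC1A had a WT peak and no STAG2-KD peak in both replicates. The WT peak held 11 reads in replicate 1 (exact Poisson 95% interval 5.49 to 19.7, counting error only) and 20 in replicate 2 (12.2 to 30.9). This was the only place near the 9 genes where a peak of any antibody was lost in both replicates.

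Beyond the 3′ end of B2M, 2 sites toward and at the start of TRIM69 showed the reverse. B2M +15.3 kb (chr15:45018635-45019426) is intergenic, and B2M +17.5 kb (chr15:45020651-45021754) covers a TRIM69 start. In replicate 1 neither site had a STAG2, STAG1 or SMC1A peak in WT, and both had all 3 in STAG2-KD. At +15.3 kb the STAG2-KD percentiles were 22.8 for STAG2, 15.2 for STAG1 and 63.1 for SMC1A, with 19, 13 and 25 reads. At +17.5 kb they were 6.87, 9.43 and 43.2. The SMC1A peak at +15.3 kb, with 25 reads, had the most reads of the 41 peaks near the 9 genes that were lost or gained in a replicate, among which the median was 13.

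In replicate 2 the same 2 sites had all 3 proteins in WT already. STAG2 stood at 15.8 (WT) and 51.7 (STAG2-KD) at +15.3 kb, with 16.5 and 53.3 at +17.5 kb. SMC1A was also higher, from 60.6 to 70.8 and from 62.5 to 70.7. Thus STAG2 and SMC1A were stronger in STAG2-KD at both sites in both replicates, by appearance in one and by rank in the other. STAG1 did not follow in the same way: in replicate 2 it was lower at +15.3 kb, from 24.8 to 6.12, and higher at +17.5 kb, from 3.94 to 31.1. CTCF at +15.3 kb was higher in STAG2-KD in both replicates, by 16.8 ± 1.1 percentile points (SD, n = 2).

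**Figure D3:**
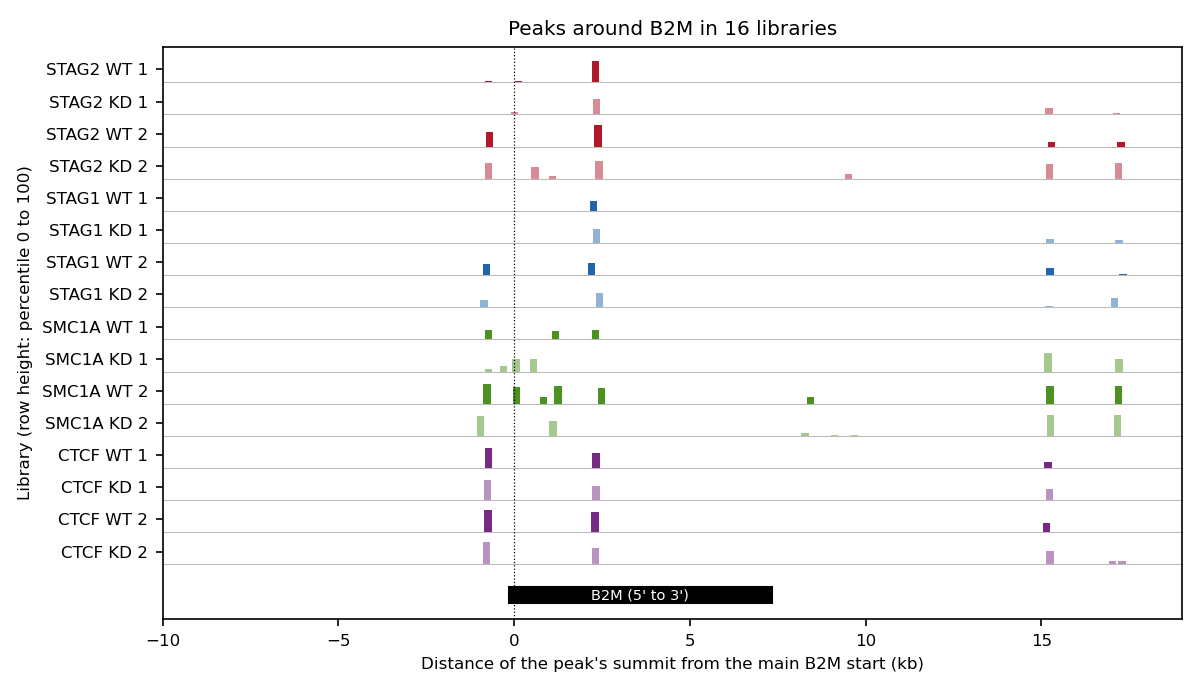
Peaks around B2M by distance of the summit from its main start (kb), 1 row per library (KD for STAG2-KD, then the replicate number); the bar height is the strength percentile, pale bars are STAG2-KD, and the black bar is the gene. STAG2 at +2.3 kb is lower in both STAG2-KD rows, SMC1A is missing there in both STAG2-KD rows, and near +15 to +17 kb the replicate 1 WT rows of STAG2, STAG1 and SMC1A are empty.

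The heavy chain HLA-B (ENSG00000234745, chr6:31321649-31334844, minus strand) had 2 peaks in each replicate 1 list and 1 in each replicate 2 list. No list had a peak at its main start, chr6:31324956. HLA-B −17.1 kb (chr6:31341743-31342457), in an intron of an overlapping unnamed transcript, had a peak in all 16 lists, the only chromosome 6 site to do so. STAG2 stood at 59.99 (WT) and 49.9 (STAG2-KD) in the first replicate, with 65.9 and 54.9 in the second, a mean difference of −10.6 ± 0.64 percentile points (SD, n = 2). STAG1 stood at 57.5 and 72.8 in the first, with 70.5 and 75.4 in the second, a mean difference of 10.1 ± 7.4. In both replicates STAG2 was lower and STAG1 higher in STAG2-KD than in WT of the same replicate.

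At the same site SMC1A was higher in STAG2-KD by 4.76 ± 0.10 percentile points (SD, n = 2), and CTCF differed by 0.48 ± 1.8, less than the spread between replicates. For scale, over all retained sites the median change of STAG1 was 9.13 percentile points in replicate 1 and 1.796 in replicate 2. For SMC1A it was 2.54 and 1.11. HLA-B −17.1 kb thus had the sign of the whole-genome medians for all 3 cohesin subunits.

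The other HLA-B site, −9.9 kb (chr6:31334576-31335093), lies at an upstream alternative start and had peaks in all 8 replicate 1 lists and in none of replicate 2. STAG2 stood at 61.1 in WT and 54.9 in STAG2-KD, STAG1 at 57.2 and 66.2, SMC1A at 32.9 and 52.5, and CTCF at 60.5 and 59.3. Both HLA-B sites hold the core of the CTCF motif within 100 bp of a CTCF summit, as did 4 of the 21 member sites with a CTCF peak. Over all CTCF summits of a list the share was 15.98% to 21.1%. These 4 sequences are shown with 9 bases on each side, on the strand that carries the core, which is in capitals. All 4 read from the minus strand of hg19.
HLA-B −9.9 kb, chr6:31334837-31334865: gcgcatcgaCCACCAGGTGGcgctgctgc
HLA-B −17.1 kb, chr6:31342110-31342138: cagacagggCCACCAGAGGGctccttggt
PSMB9 +14.2 kb, chr6:32836141-32836169: cccatttggCCACTAGGTGGcgcaaaagg
NLRC5 +56.5 kb, chr16:57079872-57079900: ggcctggtcCCACTAGAGGGcagccggga

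HLA-C (ENSG00000204525, chr6:31236526-31239907, minus strand), a second classical heavy chain, had no peak within 10 kb in any of the 16 lists. Of all protein-coding genes 901 (4.47%) were likewise without a peak. In the 150 bases before the start, the HLA-B and HLA-C reference sequences differ by 18 edits (substitutions, insertions or deletions), the fewest of any pair among the 9 genes. They are shown for this likeness, with CCAAT boxes on either strand in capitals, and its part in the missing peaks was not tested.
HLA-B, chr6:31324957-31325106, minus strand: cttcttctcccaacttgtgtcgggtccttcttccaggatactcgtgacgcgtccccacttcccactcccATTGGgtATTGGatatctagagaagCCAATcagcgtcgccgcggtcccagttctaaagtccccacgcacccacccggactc
HLA-C, chr6:31239870-31240019, minus strand: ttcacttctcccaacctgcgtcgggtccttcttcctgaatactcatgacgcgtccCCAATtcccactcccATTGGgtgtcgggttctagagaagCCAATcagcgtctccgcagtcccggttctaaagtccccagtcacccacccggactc

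HLA-E (ENSG00000204592, chr6:30457286-30461971, plus strand), the heavy chain that NK-cell receptors of the NKG2 family read, had 3 sites, all in replicate 1 alone and none at its start. Its strongest STAG2 site was HLA-E −7.3 kb (chr6:30449692-30450317), where STAG2 stood at 75.7 in WT and 57.2 in STAG2-KD, with 83 and 37 reads. STAG1 there stood at 72.9 and 80.4, with 99 and 117 reads, and CTCF at 70.3 and 71.8. At HLA-E −5.6 kb STAG2 stood at 65.3 and 43.99 and STAG1 at 57.2 and 68.6. All 3 HLA-E sites had less STAG2 and more STAG1 in STAG2-KD, and at +7.3 kb the STAG1 peak, of 19 reads, was present in STAG2-KD alone. SMC1A had peaks of 11 reads at the 2 upstream sites, in STAG2-KD alone.

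TAP1 (ENSG00000168394, chr6:32812986-32821593, minus strand) and PSMB9 (ENSG00000240065, chr6:32811913-32827628, plus strand) are divergent neighbours that share a promoter. The shared promoter site, PSMB9 −0.1 kb (chr6:32821590-32822146), had CTCF at 46.2 in WT and 46.7 in STAG2-KD and SMC1A at 39.7 and 28.3, in replicate 1. Neither STAG2 nor STAG1 had a peak there in any list. The TAP1 side of this stretch holds 2 overlapping ISRE matches, in capitals.
TAP1, chr6:32821482-32821631, minus strand: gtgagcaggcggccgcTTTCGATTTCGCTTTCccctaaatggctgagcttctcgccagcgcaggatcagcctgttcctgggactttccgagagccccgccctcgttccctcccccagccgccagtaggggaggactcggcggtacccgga

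Of the sites named by PSMB9, the strongest for STAG2 was intergenic, at PSMB9 +14.2 kb (chr6:32835865-32836398), one of the sites with a CTCF core shown above. It lies within 10 kb of PSMB9 but not of TAP1. The TAP2 promoter site, which falls within 10 kb of TAP1 and PSMB9 too, ranked higher for STAG2, at 75.6 in WT and 65.5 in STAG2-KD. At PSMB9 +14.2 kb STAG2 stood at 69.0 in WT and 51.0 in STAG2-KD, with 57 and 30 reads, and STAG1 at 46.9 and 65.3, with 32 and 52 reads. CTCF was at 60.05 and 49.2. STAG2 and STAG1 traded order here, STAG2 ranking above STAG1 in WT and below it in STAG2-KD, in 1 pair of libraries each. The same change of order was seen in replicate 1 at HLA-E −7.3 kb, HLA-E −5.6 kb, both HLA-B sites, TAP2 +12.7 kb and TAPBP +14.3 kb. Off chromosome 6 it was seen in replicate 1 at NLRC5 +56.5 kb, NLRC5 +94.9 kb and NLRC5 +103.0 kb. It was not seen at TAP2 −0.1 kb or B2M +2.3 kb. In replicate 2 it was seen at NLRC5 +56.5 kb but not at NLRC5 +94.9 kb or NLRC5 +103.0 kb. Nor was it seen at HLA-B −17.1 kb in replicate 2, where WT STAG1 (70.5) already ranked above WT STAG2 (65.9). Its share over all sites was not computed. These ranks come from STAG2 and STAG1 lists of different lengths.

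TAP2 (ENSG00000204267, chr6:32789610-32806516, minus strand), the partner of TAP1, was the one transporter gene with all 4 proteins at its promoter. At TAP2 −0.1 kb (chr6:32806320-32806885), STAG2 stood at 75.6 in WT and 65.5 in STAG2-KD, STAG1 at 54.6 and 57.4, SMC1A at 70.1 and 40.7, and CTCF at 69.9 and 66.2, all in replicate 1. The SMC1A difference, with 25 and 12 reads, was the largest decrease of SMC1A at a retained site of the 9 genes. Its promoter holds 1 ISRE match, on the reverse strand.
TAP2, chr6:32806517-32806666, minus strand: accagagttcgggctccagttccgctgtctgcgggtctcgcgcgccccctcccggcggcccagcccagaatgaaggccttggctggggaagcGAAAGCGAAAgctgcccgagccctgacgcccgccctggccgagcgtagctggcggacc
At TAP2 +12.7 kb, in an exon of TAP2, STAG2 stood at 63.7 and 43.2 and STAG1 at 46.9 and 58.5.

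TAPBP (ENSG00000231925, chr6:33267471-33282061, minus strand), which encodes tapasin, had 1 peak in each replicate 1 list, at its 3′ end. That site, TAPBP +14.3 kb (chr6:33267283-33267899), is within 1 kb of a start of RGL2. CTCF stood at 69.6 in WT and 68.4 in STAG2-KD and STAG2 at 24.4 and 28.8. Among the chromosome 6 sites with a STAG2 peak, it was the only one where STAG2 was not lower in STAG2-KD. No list had a peak at the TAPBP start, whose 150 bases end in 2 overlapping ISRE matches on the reverse strand.
TAPBP, chr6:33281856-33282005, minus strand: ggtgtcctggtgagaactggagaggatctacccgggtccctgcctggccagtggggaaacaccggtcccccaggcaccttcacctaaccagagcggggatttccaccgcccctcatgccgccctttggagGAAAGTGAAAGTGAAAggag

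Counted from 250 bases before to 50 bases after the main start, 5 of the 9 genes held an ISRE match (B2M, TAP1, TAP2, TAPBP and NLRC5), against 3.27% of 18922 protein-coding promoters. A CCAAT box was found in 6 of 9, against 36.0%, and a CTCF core in 0 of 9, against 2.51%. A match is a run of letters and not a measured binding site.

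NLRC5 (ENSG00000140853, chr16:57023397-57117443, plus strand), the class I transactivator, had 3 to 9 peaks per list in replicate 1 and 5 to 7 in replicate 2. Its main promoter site (chr16:57023012-57023992) held cohesin and little CTCF, which had no peak in replicate 1 and ranked at 28.7 (WT) and 13.9 (STAG2-KD) in replicate 2. STAG2 stood at 31.7 in WT with no STAG2-KD peak in the first replicate, then at 51.5 and 38.3. The lost STAG2 peak held 19 reads (exact Poisson 95% interval 11.4 to 29.7). SMC1A went the other way, at 34.9 and 49.8, then 56.6 and 71.6, a mean difference of 14.98 ± 0.061 percentile points (SD, n = 2). Its summit reads were 13 (WT) and 15 (STAG2-KD), then 22 and 32, and the SD of the 2 differences does not measure counting error. STAG1 stood at 15.02 (WT) in the first replicate, where the STAG2-KD peak overlapping it was at 8.68 and a separate, gained peak at 18.2. In the second it stood at 29.3 and 12.4, so between overlapping peaks STAG1 was lower in STAG2-KD in both.

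Within the gene, NLRC5 +56.5 kb (chr16:57079445-57080431) lies within 1 kb of an internal annotated start and had a peak in all 16 lists. STAG2 stood at 58.0 (WT) and 22.8 (STAG2-KD) in the first replicate, with 74.8 and 62.9 in the second, a mean difference of −23.6 ± 16 percentile points (SD, n = 2). SMC1A and CTCF were also lower in STAG2-KD in both replicates, by −6.10 ± 2.9 and −6.34 ± 1.1. Their reads at the summit differed less, with 31 (WT) and 35 (STAG2-KD) and then 58 and 50 for SMC1A, and 73 and 73 and then 103 and 99 for CTCF. The reads expected from background were higher in STAG2-KD, 1.02 and 1.86, then 2.67 and 4.34 for SMC1A, and 0.896 and 2.65, then 2.08 and 3.52 for CTCF. For STAG2 they were also higher, 1.99 (WT) and 3.13 (STAG2-KD), then 3.61 and 5.10. The STAG2 summit reads were 35 and 19, then 56 and 42. STAG1 differed by 1.52 ± 5.0, which is less than its spread.

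Just past the 3′ end of the gene, NLRC5 +94.9 kb (chr16:57117463-57119272) was the strongest STAG2 site near any of the 9 genes. STAG2 stood at 89.7 (WT) and 77.4 (STAG2-KD) in the first replicate, with 92.0 and 88.4 in the second. STAG1 stood at 89.4 and 83.9, then 93.8 and 90.9. All 4 antibodies were lower in STAG2-KD in both replicates, by −7.91 ± 6.2 for STAG2, −4.18 ± 1.9 for STAG1, −5.997 ± 2.7 for SMC1A and −6.86 ± 2.6 for CTCF (SD, n = 2). CTCF reads at the summit were close, 226 (WT) and 219 (STAG2-KD), then 206 and 209, while the reads expected from background were 1.38 and 3.71, then 4.16 and 6.46. SMC1A reads were 110 and 109, then 139 and 139, and STAG1 reads were 176 and 192, then 197 and 181. STAG2 reads were lower in STAG2-KD in both, at 159 and 121, then 172 and 155. The reads expected from background were 1.57 (WT) and 4.34 (STAG2-KD), then 5.34 and 7.23 for SMC1A. For STAG1 they were 3.05 and 6.92, then 7.97 and 7.94, and for STAG2 2.92 and 8.35, then 8.25 and 10.2. Summit reads were not scaled to the coverage of a list.

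NLRC5 +103.0 kb (chr16:57125297-57127616), at the start of CPNE2, had the highest CTCF values near the 9 genes in replicate 2, at 99.8 in WT and 99.7 in STAG2-KD. It was also in all 16 lists. STAG1 was higher in STAG2-KD in both replicates, from 42.5 to 62.9 and from 68.2 to 73.4, and STAG2 was lower in replicate 1, from 71.0 to 62.0, and 79.4 in both conditions of replicate 2. Weak SMC1A peaks were gained in both replicates in introns at NLRC5 +11.1 kb (chr16:57034365-57034849) and NLRC5 +71.8 kb (chr16:57094974-57095627), with 8 reads at each in replicate 1 and 16 at each in replicate 2.

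**Figure D4:**
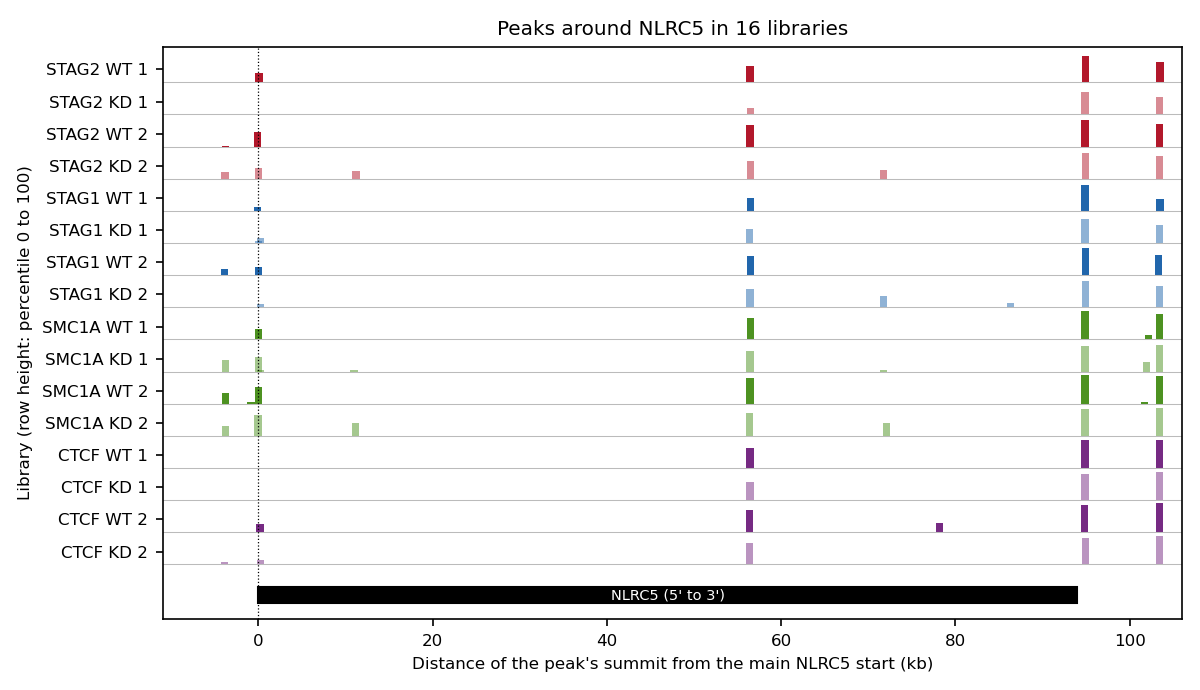
Peaks around NLRC5 by distance of the summit from its main start (kb), drawn as for B2M. The 3 columns at about 56, 95 and 103 kb are present in all 16 rows, and the columns near 11 and 72 kb hold STAG2-KD bars alone.

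Seen over the 9 genes together, STAG2 was lower in STAG2-KD at 12 of 14 retained sites in replicate 1, where 81.8% of all retained STAG2 sites were lower, and at 5 of 10 in replicate 2, where 62.8% were. In replicate 1 these were 8 of 9 sites on chromosome 6, with a median of −18.0 percentile points and a median log2 ratio of fold enrichment of −0.61, against −0.39 over all retained sites. STAG1 was lower at 1 of 13 sites in replicate 1 (15.2% of all) and at 5 of 9 in replicate 2 (38.4%). On chromosome 6 in replicate 1 it was lower at 0 of 8. In replicate 2, 9 of the 10 STAG2 sites and 8 of the 9 STAG1 sites were near B2M and NLRC5. SMC1A was lower at 4 of 10 (37.8% of all) and 5 of 10 (43.5%), and CTCF at 10 of 16 (44.5%) and 6 of 8 (59.1%). These counts take the strongest peak of a site in each list. Counted by WT peak against the strongest peak overlapping it, as the percentages are, they were 12 of 14 and 5 of 10 for STAG2, 2 of 13 and 5 of 9 for STAG1, 5 of 11 and 6 of 13 for SMC1A, and 10 of 16 and 6 of 9 for CTCF.

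**Figure D5:**
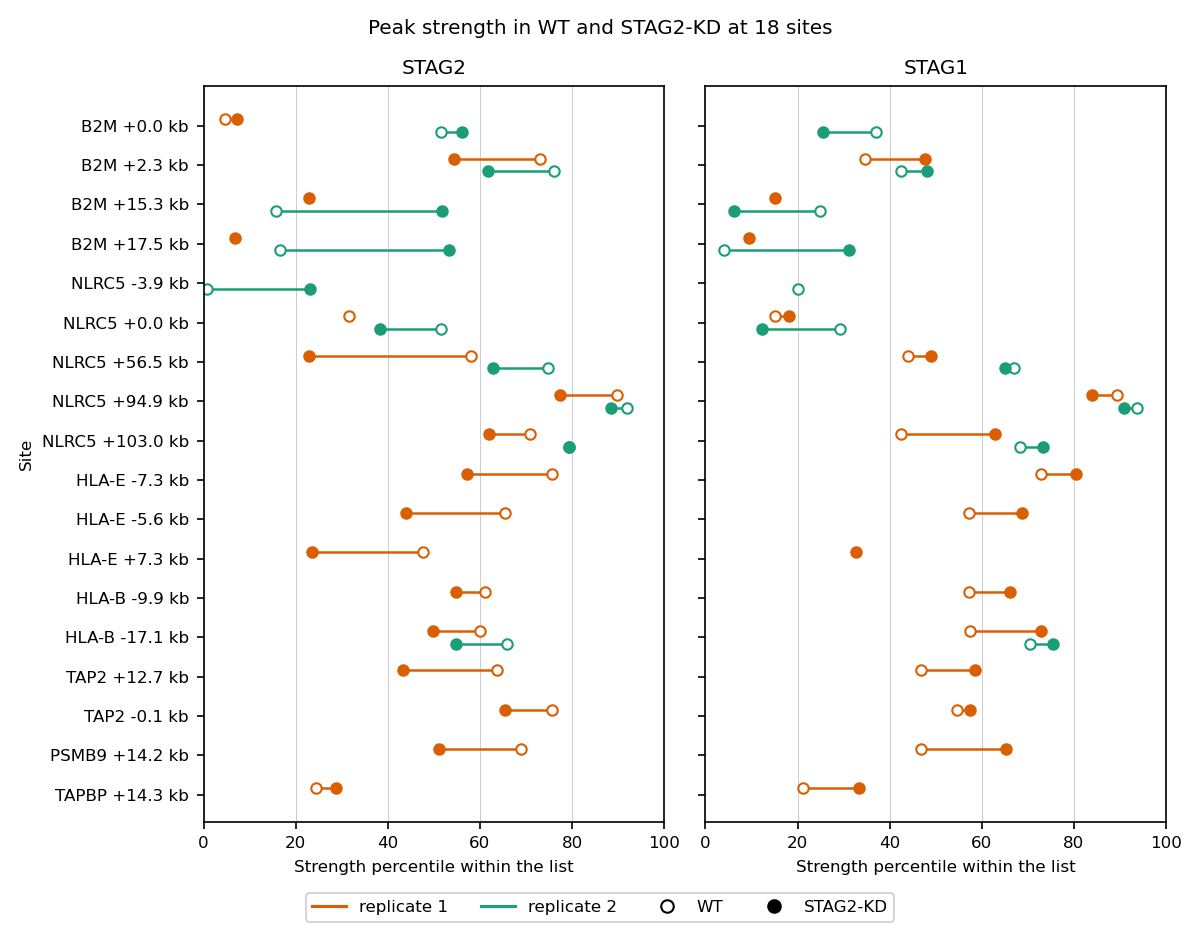
Strength percentile of STAG2 (left) and STAG1 (right) at the 18 sites with a peak of either protein in both conditions of a replicate; open circles are WT, filled circles STAG2-KD, and a lone circle had a peak in 1 condition. On chromosome 6 the orange STAG2 circles move left at 8 of 9 sites and the STAG1 circles move right at all 8 retained sites, while near B2M and NLRC5 the directions vary.

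Presence and absence gave few calls. Of the WT STAG2 peaks near the 9 genes 2 of 16 were lost in replicate 1, against 32.2% of all WT STAG2 peaks, and 0 of 10 in replicate 2, against 22.1%. Of the STAG2-KD STAG2 peaks 2 of 16 were gained (6.62% of all) and 4 of 15 (12% of all). STAG1 was lost at 0 of 13 (6.42%) and 1 of 10 (13.6%) and gained at 4 of 17 (31.7%) and 2 of 12 (18.6%). With 10 to 17 peaks behind each share, 1 peak moves it by several percentage points.

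SMC1A was lost at 2 of 13 WT peaks (19.1% of all) and 3 of 16 (25.8%), and gained at 12 of 23 STAG2-KD peaks in replicate 1 (28.6%) and 4 of 15 in replicate 2 (29.7%). The 12 gained SMC1A peaks of replicate 1 were the largest count of any call, and 5 of them were near B2M and 4 near NLRC5. CTCF was lost at 1 of 17 (12.3%) and 1 of 10 (16.9%) and gained at 0 of 16 (15.1%) and 3 of 11 (12.1%). All 41 lost or gained peaks held 8 to 25 reads, and their median percentile was 22.8, so they came mostly from the weaker part of the lists.

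Calls across both replicates were rarer. They were counted over replicate 1 peaks that met a replicate 2 peak of the same condition, and a call means that the replicate 1 interval met no peak of the other condition in either replicate. For STAG2, 0 of 8 WT peaks were lost (5.43% of all) and 0 of 8 STAG2-KD peaks gained (0.875%). For STAG1, 0 of 6 were lost (1.65%) and 0 of 9 gained (6.78%). For CTCF, 0 of 7 were lost (3.3%) and 0 of 7 gained (2.17%). SMC1A was lost at 1 of 9 (3.9%), B2M +2.3 kb, and gained at 3 of 16 (6.62%), the B2M promoter peak, NLRC5 +11.1 kb and NLRC5 +71.8 kb. At the 2 NLRC5 sites the peak was also gained in replicate 2 on its own, whereas at the B2M promoter it was not, as described above.

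Changes in peak number near the 9 genes differed between replicates. STAG2 had 16 WT and 16 STAG2-KD peaks in replicate 1 and 10 and 15 in replicate 2, a mean log2 ratio of STAG2-KD to WT of 0.29 ± 0.41 (SD, n = 2). STAG1 had 13 and 17 and then 10 and 12, a mean of 0.33 ± 0.088, while the whole STAG1 lists grew from 63535 to 85621 and from 98453 to 104663 peaks. SMC1A had 13 and 23 and then 16 and 15 (0.37 ± 0.65), and CTCF 17 and 16 and then 10 and 11 (0.025 ± 0.16). The differences of STAG2, SMC1A and CTCF were smaller than their spread. With each list limited to its 58521 strongest peaks, the means were 0 for STAG1, 0.25 ± 0.076 for STAG2, 0.15 ± 0.055 for SMC1A and 0.047 ± 0.066 for CTCF.

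A promoter peak, within 1 kb of any annotated start, in all 4 lists of an antibody was found at few of the 9 genes. For STAG2 these were B2M and NLRC5 (2 of 9, against 47.1% of protein-coding genes), for STAG1 NLRC5 (1 of 9, 41.2%), for SMC1A B2M and NLRC5 (2 of 9, 56.7%) and for CTCF B2M and NLRC5 (2 of 9, 52.1%). The chromosome 6 genes had no promoter peak in replicate 2. In the replicate 1 lists alone, STAG2 was at the promoter of 4 genes (B2M, HLA-B, NLRC5 and TAP2), STAG1 of 3, and SMC1A and CTCF of 6 each. The share of all protein-coding genes was not computed for replicate 1 alone. The percentages above require all 4 lists and are no measure for these counts. With the main start alone, HLA-B dropped out and NLRC5 lost STAG2 and CTCF, since in replicate 1 its main start had no CTCF peak and no STAG2 peak in STAG2-KD.

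Most cohesin peaks near the 9 genes met a CTCF peak of the same condition and replicate. For WT STAG2 it was 14 of 16 in replicate 1 (72.6% of all WT STAG2 peaks) and 8 of 10 in replicate 2 (68.7%). For STAG2-KD STAG1 it was 14 of 17 (74.4%) and 10 of 12 (74.9%). SMC1A in WT had fewer, 10 of 13 (65.5%) and 8 of 16 (54.5%). Each share near the 9 genes rests on at most 17 peaks.

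Another 15 genes of the pathway were read in the same way: the proteasome genes PSMB8, PSMB10, PSME1 and PSME2, the trimming enzymes ERAP1 and ERAP2, the chaperones CALR, CANX, PDIA3 and TAPBPL, and the regulators RFX5, RFXANK, RFXAP, CIITA and IRF1. PSMB8 is on chromosome 6 and had peaks in replicate 1 alone. STAG2 was lost at 11 of 38 WT peaks in replicate 1 and 6 of 58 in replicate 2, and STAG1 was gained at 19 of 44 and 11 of 49 STAG2-KD peaks, beside the whole-list shares given above. Across both replicates, STAG2 was lost at 2 of 37 peaks, near RFXAP, a subunit of the RFX complex (percentiles of 18.4 and 46.1 in WT), and CALR, the chaperone calreticulin (19.6 and 35.2). STAG1 was gained at 2 of 40, near PDIA3, the disulfide isomerase of the peptide-loading complex (15.2 and 44.3 in STAG2-KD), and RFXANK, another RFX subunit (19.1 and 19.3). SMC1A was gained at 5 of 60, near TAPBPL, RFXAP, PSME1 and PSME2, CANX and CIITA, the class II transactivator (10.6 and 58.5), and lost at 2 of 51, near IRF1 and CANX. CTCF was gained at 2 of 51, near PSME1 and PSME2 and near PSMB10, and lost at 2 of 55, near PSME2 and RFXANK. STAG2 was gained at 0 of 30 and STAG1 lost at 0 of 28, and the whole-list shares of these calls are those given above. As at the B2M promoter, some calls across both replicates were not made in replicate 2 on its own. Replicate 2 had no gained CTCF peak near PSME1, PSME2 or PSMB10. At PSMB10 a replicate 1 CTCF peak of 7 reads met a replicate 2 peak of 215 reads, at percentiles of 2.42 and 99.0. Replicate 2 also had no SMC1A peak gained near RFXAP or lost near CANX. Promoter peaks in all 4 lists were found at 5 of 15 genes for STAG2, 6 for STAG1, 10 for SMC1A and 9 for CTCF. Over all protein-coding genes the shares were 47.1%, 41.2%, 56.7% and 52.1%.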

How the data were processed

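Per the study's methods and the submitters' notes, reads were aligned to hg19, by Bowtie2 in replicate 1 and, per the notes, BWA in replicate 2, and MACS2 called peaks against input, 1 list per library. The deposited lists give a score, a fold enrichment at the summit (a ratio), −log10 p-values, −log10 q-values and a summit offset, which are the authors' values. Replicate 1 was limited by q-value and replicate 2 by p-value. Rows outside the main chromosomes were left out. The 4 input libraries had no list and were not analysed here.

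Sites were merged by overlap of at least 1 bp. Peaks found in WT alone within a replicate were called lost and those in STAG2-KD alone gained, which is presence at a threshold and not a test of binding. Reads at summits were solved from fold and p-value, and code was tested on simulated data: 3944 of 20000 simulated peaks were made lost and 3944 were found. Genes, main starts and sequences came from GENCODE and the GRCh37 genome, the same build. Python 3.11.15 with pandas 2.3.3, numpy 2.4.6 and scipy 1.17.1 was used. All 9 genes were named, with sites at a member's promoter, in all 16 lists, lost or gained in both replicates, or with the highest WT STAG2 percentile of a locus, and the other sites were given by value where they complete a locus. The members, gene lists and rules were chosen with earlier results of these data known. Libraries with the same replicate number share a set by label (title and protocol), so all comparisons are within a replicate.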

Additional observations from a re-analysis of the deposited data

Results flagged for a closer look

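Peaks on alternate sequences of the HLA region lie outside the main comparison, which used the main chromosomes alone, and they were present in every list. The median was 603.5 peaks per list in replicate 1 and 32.5 in replicate 2. Copies of the 7 chromosome 6 genes on those sequences were not analysed here.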

How the results depend on the processing

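Nothing here was tested between groups, so a value is said to move when it differs from the reported one by more than 1 SD of the replicates, or for a count by more than 1.5 times. Of 190 recomputed values 148 did not move and 42 did. Leaving out 1 replicate could not move a ratio, share or percentile change by this rule. With 2 replicates, each value always lies within 1 SD of their mean. The 148 include 34 values without replicate 1 and 31 without replicate 2, most of them of this kind, so the total does not measure stability. The mean log2 peak ratio of STAG1 was 0.11 with −log10 q of at least 5, 0 with equal numbers of peaks, 0.42 with a 2 kb window, 0.20 with a 50 kb window and 0.48 for B2M and NLRC5 alone, and that of CTCF was −0.23 with −log10 q of at least 5 and −0.32 with a 2 kb window. Without one replicate the ratios ran from 0 to 0.58 for STAG2, 0.26 to 0.39 for STAG1, −0.093 to 0.82 for SMC1A and −0.087 to 0.14 for CTCF. The share of STAG1 peaks gained, 20.1% on average, was 10.3% without the replicate block (lists of both replicates pooled), 27.2% with an overlap of at least 50%, 26.8% with −log10 q of at least 2, 3.85% with equal numbers of peaks, 13.1% with a 50 kb window and 27.8% for B2M and NLRC5 alone, which was chosen, like the main start alone, after seeing the data. Leaving out the block changed no other value by more than 1 SD.

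Genes with a promoter peak in all 4 lists numbered 1 for STAG2, SMC1A and CTCF with a promoter of 0.25 kb, 2 for STAG1 with 2 kb, 1 for STAG2 with −log10 q of at least 5 or equal numbers of peaks, and 1 for STAG2 and CTCF with the main start alone. Without one replicate they ran from 2 to 4 for STAG2, 2 to 3 for STAG1 and 2 to 6 for SMC1A and CTCF. Between overlapping peaks alone, also chosen after seeing the data, the mean percentile change of SMC1A at the B2M promoter was −13.4 in place of 5.12. The other 24 mean changes did not move. Nearly all of these could not, since only 2 of 90 site changes within a replicate had strongest peaks that did not overlap. In both, the direction differed between overlapping peaks. By fold in place of p-value, 23 of 25 mean percentile changes kept their sign. Those that moved by fold were −1.18 for CTCF at the B2M promoter and −5.82 for STAG1 at NLRC5 +56.5 kb, both of the other sign, 15.04 for CTCF at B2M +15.3 kb, 21.0 for SMC1A at the NLRC5 promoter, −9.74 for SMC1A and −13.4 for CTCF at NLRC5 +56.5 kb, −17.1, −9.34, −12.1 and −16.1 for STAG2, STAG1, SMC1A and CTCF at NLRC5 +94.9 kb, and −8.52, 6.43 and 2.94 for STAG2, SMC1A and CTCF at HLA-B −17.1 kb. The ratio of replicate 1 to replicate 2 peaks near the chromosome 6 genes was 17.1 with a 50 kb window, and near B2M and NLRC5 it was 1.09 with equal numbers of peaks. The cause of these shifts was not tested. Low read numbers limit the lost and gained calls, and the chromosome 6 values rest on replicate 1.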
